A study of Mus musculus with 7 samples.

Results

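Replication-dependent histone genes are those of the Hist1 to Hist4 gene clusters, and they were followed here in mouse C2C12 muscle cells after 24 h with exosomes from palmitate-treated cells. A gene was taken as a member if the annotation of the array gives it a name that begins with Hist1h, Hist2h, Hist3h or Hist4h. This gave 47 genes among the 31829 gene names on the array, measured by 51 probes. Of these, 39 probes for 36 genes were well above background on at least 3 arrays of 1 group and were tested. Filter passes came from both groups for 32 of the 39 probes, only from EXO-Post Palm for 4 and only from EXO-Post BSA for 3.

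C2C12 is a mouse line of muscle precursor cells that fuse into myotubes. The exosomes, small vesicles shed by cells, came from other C2C12 cultures that had received palmitate at 0.5 mmol/l (EXO-Post Palm) or the carrier albumin alone (EXO-Post BSA), and by the study's methods collection took place 9 h after palmitate removal. RNA of the recipient cells was hybridised to 1-colour Agilent arrays, 4 for EXO-Post BSA and 3 for EXO-Post Palm, which the labels call biological replicates, and no array of cells without exosomes was used here. The cell line entry of the labels counts up from C2C12 to C2C18 over the samples, and all were taken as C2C12. No label says whether each array had its own exosome preparation. EXO-Post BSA replicates 1 and 2 shared slide 1 with EXO-Post Palm replicate 1. A pair made up of EXO-Post BSA replicate 4 and EXO-Post Palm replicate 3 lay on slide 3, and each of the remaining 2 arrays had a slide to itself. Every value below is the processed spot signal of Feature Extraction on a log2 scale, less the array's own 75th percentile, so 0 marks that percentile, and a difference is EXO-Post Palm minus EXO-Post BSA. Signals of different probes are not levels that can be set against each other.

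Histones package DNA. H2A, H2B, H3 and H4 form the core of the nucleosome, and H1 binds the DNA between cores. The cluster genes are transcribed mainly while DNA is copied in S phase, and their mRNA ends in a stem-loop instead of a poly(A) tail. The stem-loop is bound by the protein SLBP, which is needed for cutting the precursor and for translation, and the mRNA is quickly lost when replication stops. Some of the same genes also give longer, polyadenylated transcripts that run past the stem-loop, among others in differentiating cells. The labelling kit named in the labels primes with oligo-dT, which binds poly(A). How much the kit picked up of each kind of histone mRNA was not tested.

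The labels name the recipient cells as myoblasts and the paper calls them myotubes. Of 15 muscle genes looked up, 14 were tested, and their signals ranged widely between probes. Myog and Acta1 had mean signals of 5.58 and 7.09 in EXO-Post BSA and of 5.51 and 7.01 in EXO-Post Palm. Ckm, Actn2 and Myf6 had means of 0.88, 0.36 and -2.24 in EXO-Post BSA and of 1.24, 0.22 and -2.68 in EXO-Post Palm. Whether the cells had fused was not tested. Over the 13 muscle genes measured on every array, the mean lay between 3.02 and 3.37 with EXO-Post BSA and between 2.94 and 3.30 with EXO-Post Palm, and the groups overlapped. Markers of other cells were tested for 3 of 6 macrophage genes, 1 of 5 adipocyte genes and 2 of 4 endothelial genes, and none of them passed the threshold. Itgam, a macrophage gene, stood at 4.03, 3.24, 3.48 and 2.55 with EXO-Post BSA and at 1.81, 1.43 and 1.85 with EXO-Post Palm (adjusted p = 0.111 by limma), while the macrophage genes Csf1r and Emr1 had means of 0.41 and -4.38 with EXO-Post BSA and of 0.86 and -3.80 with EXO-Post Palm. Their part in the histone differences was not tested. The arrays measure RNA of a whole culture, so more cells of a kind and more RNA per cell cannot be told apart.

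Histone genes of a type resemble each other closely. The ends of the H2A coding sequences show this for the 7 probes that cover them, which include most of the larger differences reported below. All positions are on mm9 and come from the array annotation. The probe of Hist1h2ak lies at chr13:21845304-21845363 (minus strand), that of Hist1h2ag at chr13:22134392-22134451 (minus), that of Hist1h2ah at chr13:22127035-22127094 (minus), that of Hist2h2aa2 at chr3:96049837-96049896 (plus), that of Hist2h2ac at chr3:96049834-96049896 (plus) and that of Hist1h2af at chr13:23626113-23626172 (plus). Each is printed to its stop codon, and capitals mark bases that differ from Hist1h2ak after alignment. Bases that a probe lacks are not marked.
Hist1h2ak: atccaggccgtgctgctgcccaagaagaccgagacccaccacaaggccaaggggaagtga
Hist1h2ag: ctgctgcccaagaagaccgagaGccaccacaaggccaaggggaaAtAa
Hist1h2ah: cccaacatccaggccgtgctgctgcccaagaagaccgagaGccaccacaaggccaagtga
Hist2h2aa2: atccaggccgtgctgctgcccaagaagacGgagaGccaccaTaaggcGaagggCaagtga
Hist2h2ac: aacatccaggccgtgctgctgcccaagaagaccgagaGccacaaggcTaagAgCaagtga
Hist1h2af: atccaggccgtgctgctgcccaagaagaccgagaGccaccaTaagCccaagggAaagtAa
The other 6 probes, Hist1h2an included, were identical to Hist1h2ak at 90% to 98.1% of the aligned bases, and the longest unbroken stretch shared with it was 18 to 34 bases. The annotation places the probes of Hist2h2ac and Hist2h2aa2 on the same stretch of chromosome 3, on the plus strand. The RefSeq promoters of both genes are on the minus strand, so this placement is not certain. Because the sequences are so alike, signal on any of these probes can come from several H2A genes, and their values are not independent of each other.

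The stem-loop itself was held whole by 4 of the tested probes. It is shown because the place of a probe before or past it went along with the size of the difference, as described below. The probes lie on mm9 at chr3:96074056-96074115 (plus strand, Hist2h2bb), chr13:23627719-23627778 (plus, Hist1h3g), chr13:21874784-21874843 (minus, Hist1h3i) and chr3:96049949-96050008 (plus, Hist2h2aa1). Capitals mark the hairpin, a stem of 6 bases, a loop of 4 and the stem's complement.
Hist2h2bb: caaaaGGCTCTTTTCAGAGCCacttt
Hist1h3g: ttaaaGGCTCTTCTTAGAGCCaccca
Hist1h3i: caaaaGGCTCTTTTCAGAGCCccctc
Hist2h2aa1: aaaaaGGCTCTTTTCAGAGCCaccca
The hairpin was the same in 3 of them, and that of Hist1h3g had another loop. After the hairpin, 5 bases of the probe remained for Hist1h3g and Hist1h3i, 6 for Hist2h2bb and 38 for Hist2h2aa1.

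No histone probe passed an adjusted p of 0.05 by limma, in either direction, in a comparison where 0.533% of all 21589 tested probes did. At an unadjusted p under 0.05 there were 18 of the 39 probes higher with EXO-Post Palm, where 4.85% of all tested probes were higher, and 0 lower, where 5.19% were lower. All 3 EXO-Post Palm arrays lay above all 4 EXO-Post BSA arrays for 16 of the 39, against 5.4% of all tested probes, and below them for 0, against 5.87%. Among the 32 histone probes that were well above background on every array, where the filter cannot favour a direction, 14 were so separated and 16 had an unadjusted p under 0.05. By gene, given by the brightest tested probe, 29 of 36 differences were above 0 and the median was 0.55 on the log2 scale, while the median over all tested probes was -0.02.

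The median over the 36 genes moved alike on the EXO-Post Palm arrays but not by the same amount. Measured from the EXO-Post BSA mean, it was -0.19, 0.19, 0.06 and -0.09 on the control arrays in replicate order and 0.62, 0.37 and 1.04 on the EXO-Post Palm arrays. The lowest EXO-Post Palm array therefore stood above the highest EXO-Post BSA array. On slide 1 the median of EXO-Post Palm replicate 1 minus the EXO-Post BSA pair was 0.50, with 29 genes above 0, and on slide 3 the median of EXO-Post Palm replicate 3 minus EXO-Post BSA replicate 4 was 1.12, again with 29 genes above 0. For EXO-Post Palm replicate 2, which has no partner on its slide, 25 genes lay above the EXO-Post BSA mean.

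**Figure D1:**
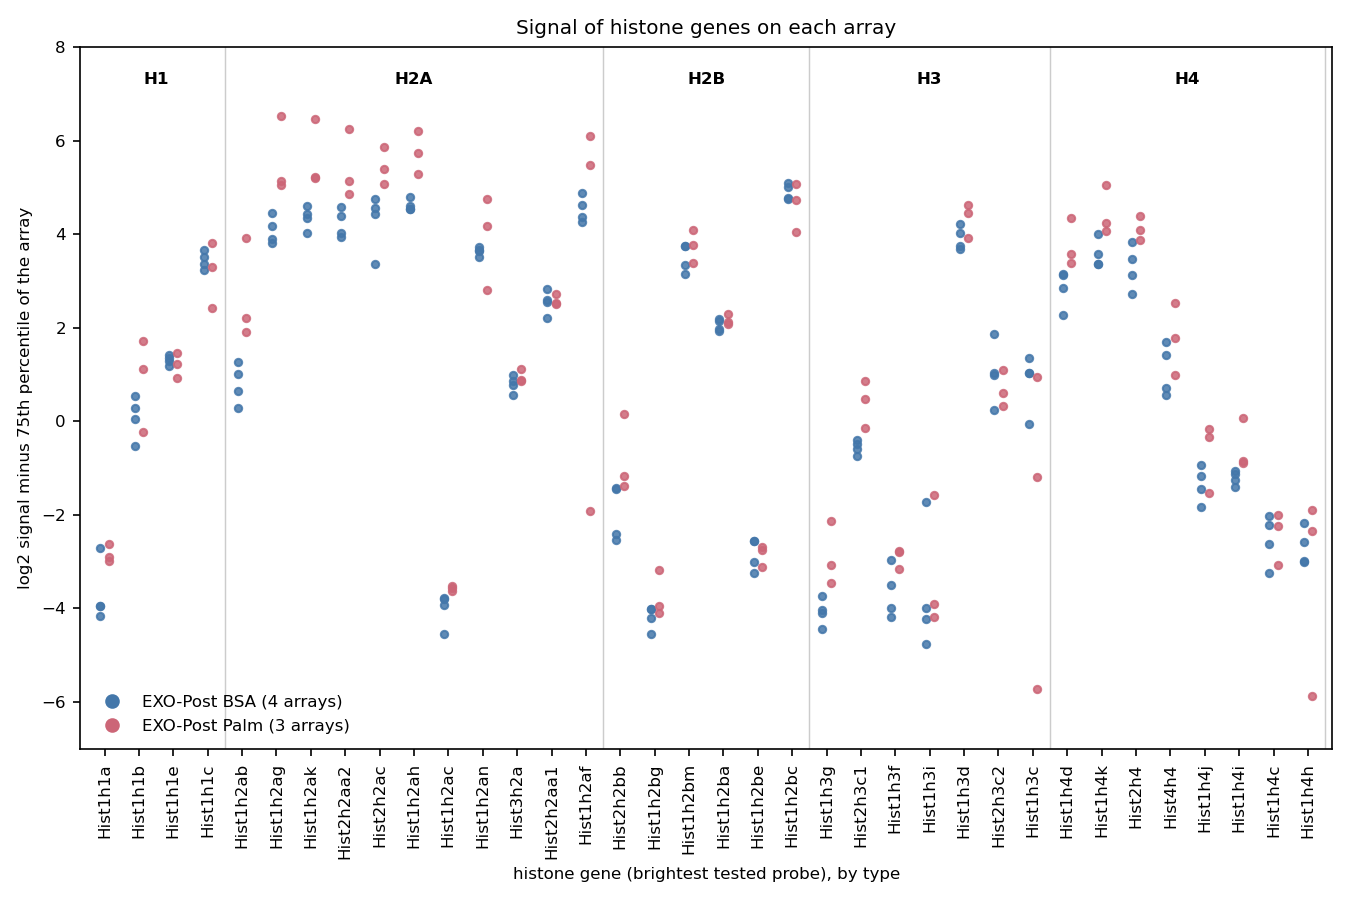
Log2 signal minus the 75th percentile of the array for the 36 tested histone genes, 1 point per array, with genes ordered within each type by their log2 fold change. The EXO-Post Palm points of several H2A genes lie above all EXO-Post BSA points, while single low EXO-Post Palm points stand at -1.92 for Hist1h2af, -5.73 for Hist1h3c and -5.87 for Hist1h4h.

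Among the types, H2A genes differed most. Of 11 tested H2A genes 10 were above 0, 7 were separated (5.4% of all tested probes) and 6 were higher at an unadjusted p under 0.05 (4.85% of all tested probes), with a median of 1.12. The 7 include Hist1h2ac, at 0.44, which passed the filter only through EXO-Post Palm. Hist1h2ab, Hist1h2ag, Hist1h2ak and Hist2h2aa2, like Hist1h4d, Hist1h4k and Hist2h4 below, belong to the study's own list, which was drawn from these arrays, so their direction is no independent evidence. Hist1h2ab stood highest among the genes by their brightest probe. It encodes a core H2A, and its probe on chromosome 13 (mm9, 23843392 to 23843451, plus strand) ends inside the stem-loop, of which it holds acaaaGGCTCTTTTCA. Its signal, in replicate order here and below, was 0.29, 1.00, 1.26 and 0.65 with EXO-Post BSA and 2.20, 1.91 and 3.91 with EXO-Post Palm. All EXO-Post Palm arrays were higher, with replicate 3 far above the other 2. The log2 fold change was 1.87 (standard error, SE, 0.47; adjusted p = 0.195 by limma; 2-sided exact permutation p = 0.0286, which 4 arrays against 3 cannot go below). It was 1.55 within slide 1 and 3.25 within slide 3.

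Hist1h2ak was measured by 2 probes, and both were separated. The probe that begins at the start codon (chromosome 13, mm9, 21845637 to 21845696, minus strand) had signals of 0.36, 0.52, 0.39 and 0.09 with EXO-Post BSA and of 1.97, 1.63 and 3.13 with EXO-Post Palm. This probe had the smallest adjusted p of all histone probes in the comparison, at 0.064 by limma, with a log2 fold change of 1.90 (SE 0.35). It passed the threshold in 6 of 19 alternative fits. Of the fits that leave out an array, only that without EXO-Post Palm replicate 2 passed, with a difference of 2.21 (adjusted p = 0.0326 by limma). With slide as a fixed block the adjusted p was 0.0777, and the highest among the alternative fits was 0.284. The brighter probe at the stop codon, whose sequence is given above, had signals of 4.03, 4.43, 4.61 and 4.34 with EXO-Post BSA and 5.23, 5.21 and 6.47 with EXO-Post Palm, a log2 fold change of 1.29 (SE 0.34; adjusted p = 0.21 by limma).

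Of the other 6 coding-end probes of H2A, 4 differed by 1.12 to 1.48, and Hist1h2an and Hist1h2af, given further on, did not. Hist1h2ag had signals of 3.90, 4.18, 4.46 and 3.82 with EXO-Post BSA and of 5.14, 5.05 and 6.52 with EXO-Post Palm, a log2 fold change of 1.48 (SE 0.37; adjusted p = 0.194 by limma). Hist1h2ah, the brightest of the H2A probes, had signals of 4.54, 4.79, 4.61 and 4.54 with EXO-Post BSA and of 5.73, 5.29 and 6.21 with EXO-Post Palm. The EXO-Post BSA mean was 4.62 ± 0.11 (SD, n = 4) and the log2 fold change 1.12 (SE 0.25; adjusted p = 0.133 by limma). Hist2h2aa2 (1.18, adjusted p = 0.273) and Hist2h2ac (1.17, adjusted p = 0.311) were also separated.

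Hist1h2an and Hist1h2af, whose probes resemble the others, did not follow them on every array. For Hist1h2an the signal was 3.65, 3.73, 3.51 and 3.63 with EXO-Post BSA and 4.75, 4.18 and 2.81 with EXO-Post Palm, so that replicates 1 and 2 lay above the control range and replicate 3 below it. Hist1h2af stood at 4.62, 4.87, 4.26 and 4.37 with EXO-Post BSA and at 5.47, -1.92 and 6.09 with EXO-Post Palm. The spot on EXO-Post Palm replicate 2 was not marked as an outlier by the scanner software. With it the log2 fold change was -1.32 (SE 1.65), and without it 1.25 (SE 0.29; adjusted p = 0.15 by limma). Leaving out spots that lie more than 2.5 log2 units below all other arrays of their probe was chosen after the values were seen. It applied to 2 other histone genes. Hist1h3c stood at -5.73 on EXO-Post Palm replicate 3 against -1.20 to 1.36 elsewhere, and its log2 fold change went from -2.84 to -0.97 (adjusted p = 0.635). Hist1h4h stood at -5.87 on EXO-Post Palm replicate 2 against -3.00 to -1.90 elsewhere, and it went from -0.69 to 0.56 (adjusted p = 0.599).

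H4 genes, which encode the most uniform of the core histones, came next. Of 8 tested genes 7 were above 0, with a median of 0.67. Among the 8, 4 were separated (5.4% of all tested probes) and 4 were higher at an unadjusted p under 0.05 (4.85% of all tested probes). Hist1h4d had signals of 2.27, 3.12, 2.84 and 3.15 with EXO-Post BSA and of 3.58, 3.38 and 4.35 with EXO-Post Palm. The groups did not overlap, and the log2 fold change was 0.92 (SE 0.32; adjusted p = 0.374 by limma; 2-sided exact permutation p = 0.0286). With normexp background correction and quantile normalisation it was 1.17 and passed (adjusted p = 0.0433). Hist1h4k, the brightest H4 probe, stood at 3.36, 4.00, 3.57 and 3.37 with EXO-Post BSA and at 4.23, 4.07 and 5.06 with EXO-Post Palm, so that the gap between the groups was narrow. Its log2 fold change was 0.88 (adjusted p = 0.362). On slide 1 EXO-Post Palm replicate 1 lay 0.88 above the EXO-Post BSA pair for Hist1h4d and 0.55 above it for Hist1h4k, and on slide 3 the differences were 1.19 and 1.69.

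H3 genes were mixed. Of 7 tested, 5 were above 0 and 2 were separated (5.4% of all tested probes), with a median of 0.46. Hist2h3c1 had signals of -0.48, -0.74, -0.59 and -0.41 with EXO-Post BSA and of -0.15, 0.47 and 0.87 with EXO-Post Palm, a log2 fold change of 0.95 (SE 0.27; adjusted p = 0.243 by limma). The EXO-Post BSA arrays of this gene lay close together, with an SD of 0.14 (n = 4). Hist1h3g, the other separated gene, was above background on every EXO-Post Palm array but only on 2 of 4 control arrays, and its log2 fold change was 1.19. It had passed the filter only through the group where it was high. Hist1h3d, the brightest H3 probe, had signals of 3.69, 3.74, 4.22 and 4.02 with EXO-Post BSA and of 3.92, 4.62 and 4.46 with EXO-Post Palm. The groups overlapped, with a log2 fold change of 0.42 (adjusted p = 0.622). Hist2h3c2 was the lowest H3 gene among those well above background on all arrays, at -0.35 (SE 0.37; adjusted p = 0.793), and its arrays overlapped.

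H2B and linker H1 genes had lower medians, of 0.18 over 6 tested H2B genes and 0.33 over 4 tested H1 genes, and the H2B median was 0.11 to 0.28 with an array left out. Among H2B genes Hist2h2bb stood highest, with signals of -2.42, -1.45, -1.43 and -2.53 with EXO-Post BSA and of -1.17, -1.39 and 0.16 with EXO-Post Palm. It was separated, though the lowest EXO-Post Palm array lay just above the highest EXO-Post BSA array, and its log2 fold change was 1.16 (SE 0.45; adjusted p = 0.437 by limma). Hist1h2bc, the brightest H2B probe, stood between 4.76 and 5.09 with EXO-Post BSA and at 5.07, 4.72 and 4.04 with EXO-Post Palm, a log2 fold change of -0.30 (adjusted p = 0.754) that was -0.01 without EXO-Post Palm replicate 3 and -0.53 when replicate 1 was left out instead. The remaining H2B genes lay between 0.00 for Hist1h2be and 0.46 for Hist1h2bg. Hist1h2bg was dim and passed the filter only through EXO-Post Palm, the group where it was higher. Among H2B genes well above background on all arrays the median was 0.11.

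Of the 4 H1 genes 2 were above 0. Hist1h1a stood highest, at 0.86 (SE 0.35; adjusted p = 0.466 by limma), but its groups overlapped and it passed the filter only through EXO-Post Palm. Hist1h1b had signals of 0.04, 0.54, 0.29 and -0.52 with EXO-Post BSA and of 1.11, -0.22 and 1.71 with EXO-Post Palm. Replicates 1 and 3 of EXO-Post Palm were above the control range and replicate 2 was inside it, so the log2 fold change of 0.78 (adjusted p = 0.612) was not larger than the spread between replicates. Hist1h1c, the brightest H1 probe, stood at 3.65, 3.37, 3.24 and 3.52 with EXO-Post BSA and at 2.43, 3.81 and 3.29 with EXO-Post Palm. The groups overlapped, and the log2 fold change was -0.27 (adjusted p = 0.817). It turned to 0.10 when EXO-Post Palm replicate 1 was left out.

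The histone genes sit in clusters, of which Hist1 on chromosome 13 is the largest, with 27 tested genes. Its median was 0.46, with 21 genes above 0 and 9 separated (5.4% of all tested probes). Hist2 on chromosome 3 had 7 tested genes, 6 of them above 0 and 5 separated (against the same 5.4%), with a median of 0.95. Beside the H2A, H2B and H3 genes above, its H4 gene Hist2h4 had signals of 2.72, 3.84, 3.47 and 3.12 with EXO-Post BSA and of 4.08, 3.87 and 4.39 with EXO-Post Palm, with a log2 fold change of 0.83 (adjusted p = 0.398). The groups did not overlap, but EXO-Post BSA replicate 2 lay just below the lowest EXO-Post Palm array. Among the 5 separated Hist2 genes are Hist2h2aa2 and Hist2h2ac, whose probes are annotated to the same stretch of chromosome 3. Both probes can also take up RNA of H2A genes in Hist1, so their values are not independent. How much of their signal came from Hist2 was not tested, nor was a difference between Hist1 and Hist2. Each of the remaining clusters gave 1 tested gene. Hist3h2a on chromosome 11 differed by 0.16, did not pass the threshold and was negative in 2 alternatives, at -0.14 with normexp and -0.17 in the authors' processed values. Hist4h4 on chromosome 6 stood at 0.72, 1.41, 1.70 and 0.55 with EXO-Post BSA and at 1.78, 0.98 and 2.52 with EXO-Post Palm (log2 fold change 0.67, adjusted p = 0.638).

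**Figure D2:**
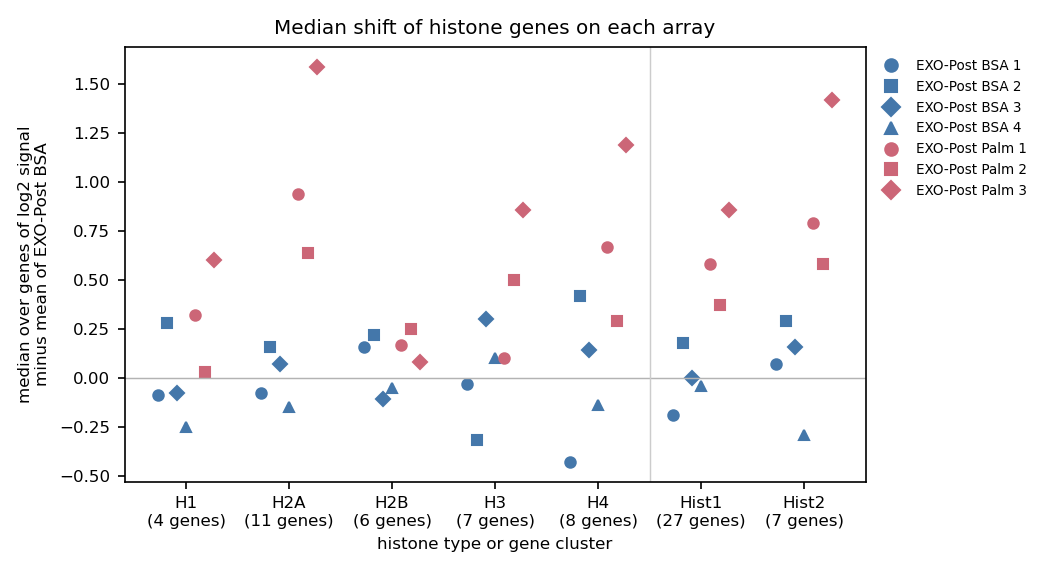
Median over the tested genes of each histone type and of the Hist1 and Hist2 clusters, on each array, as log2 signal minus the EXO-Post BSA mean of the gene. All 3 EXO-Post Palm arrays lie above the EXO-Post BSA arrays for H2A, Hist1 and Hist2, with EXO-Post Palm replicate 3 at 1.59, 0.86 and 1.42. The groups overlap for H1, H2B, H3 and H4. H2A probes counted under Hist1 and under Hist2 can share signal.

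Where the probe sat on the transcript went along with the size of the difference. Probes were parted after their positions and values had been seen, so the split is a description and was not tested. A probe was called past the stem-loop if more than 20 of its bases follow the hairpin or if, without a hairpin, it starts at base 480 or later of the transcript, or at base 1000 or later for H1. Of the 39 tested probes, 9 were past the stem-loop and 30 at or before it. The 30 differed by a median of 0.80 on the log2 scale, with 26 above 0 and 14 separated (5.4% of all tested probes). The 9 past it had a median of 0.05, with 6 above 0 and 2 separated (against the same 5.4%). Those 9 were the probes of Hist1h1c, Hist1h2ac, Hist1h2bc, Hist1h2be, Hist1h2bg, Hist2h2aa1, Hist2h3c2 and Hist3h2a and the second probe of Hist1h4i, and they ran from -0.35 to 0.65. Among probes well above background on every array the medians were 0.83 for 25 probes and 0.00 for 7. Histone type and position overlap in part, since 3 of the 6 H2B probes but 1 of the 10 H4 probes lay past the stem-loop.

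**Figure D3:**
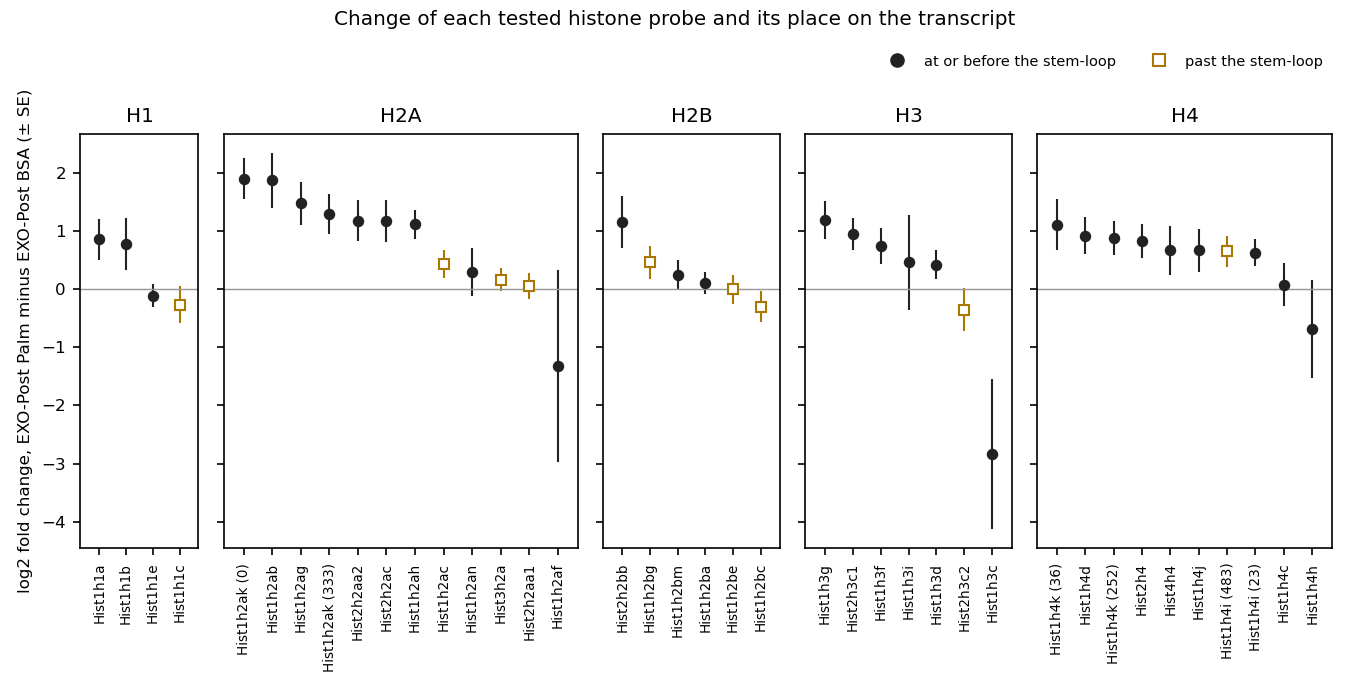
Log2 fold change with its standard error for each of the 39 tested histone probes, by type, with filled circles for probes at or before the stem-loop and open squares for probes past it. Where a gene has 2 probes, the number after its name is the base of the transcript, counted from 0, at which the probe starts. The open squares lie between -0.35 and 0.65, below most filled circles.

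A pair of probes lies on both sides of the split at the Hist2h2aa locus. Hist2h2aa1 and Hist2h2aa2 are twin H2A genes, and the array annotation places the probe named for Hist2h2aa2 at the stop codon and the probe named for Hist2h2aa1 downstream on the same strand, 52 bases apart. The signal at the stop codon was 4.02, 4.57, 4.38 and 3.94 with EXO-Post BSA and 5.14, 4.86 and 6.24 with EXO-Post Palm. Past the stem-loop it was 2.83, 2.54, 2.59 and 2.20 with EXO-Post BSA and 2.51, 2.53 and 2.72 with EXO-Post Palm, a log2 fold change of 0.05 (SE 0.22) that turned to -0.06 at its lowest among the alternatives. The difference between both probes, set to an EXO-Post BSA mean of 0, was -0.51, 0.35, 0.11 and 0.05 with EXO-Post BSA and 0.93, 0.65 and 1.83 with EXO-Post Palm, so it did not overlap between the groups. This pair was chosen after its values were seen and was given no test, and the stop-codon probe can also take up RNA of other H2A genes, as said above.

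For 3 genes with 2 tested probes each, the difference between the probes was compared between the groups by an exact permutation test, with p-values adjusted over the 3. For Hist1h2ak the probe at the start codon differed more than the one at the stop codon by 0.62 (exact p = 0.0571, adjusted p = 0.171). Set to an EXO-Post BSA mean of 0, the difference between these probes was 0.34, 0.10, -0.20 and -0.23 with EXO-Post BSA. With EXO-Post Palm it was 0.75, 0.43 and 0.67. It did not overlap between the groups, and both probes lie at or before the stem-loop. For Hist1h4k, whose probes start at bases 36 and 252, the log2 fold changes were 1.11 and 0.88, which differed by 0.23 (exact p = 0.4, adjusted p = 0.6). Hist1h4i goes against the split by position. Its probe near the start of the transcript and its probe past the stem-loop differed alike, at 0.63 and 0.65 (exact p = 0.971, adjusted p = 0.971), and both were separated.

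**Figure D4:**
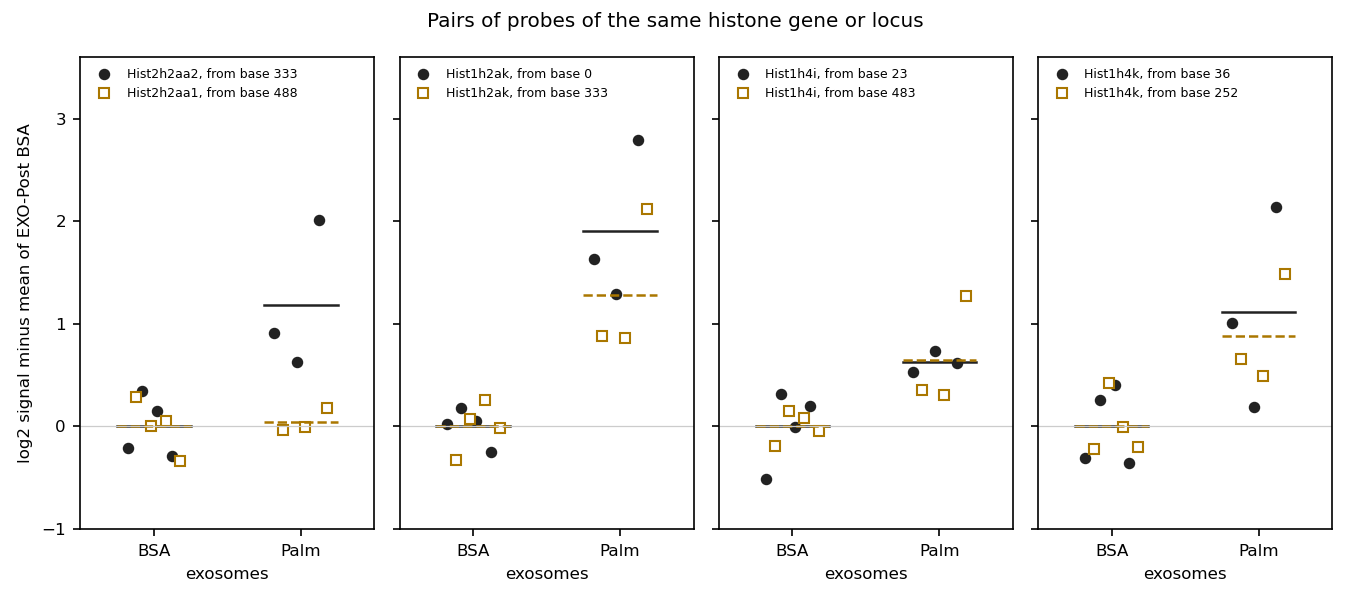
Log2 signal minus the EXO-Post BSA mean of the probe for 4 pairs of probes of the same gene or locus, 1 point per array, with lines at the group means. For the Hist2h2aa pair the EXO-Post Palm means are 1.18 at the stop codon and 0.05 past the stem-loop, while for Hist1h4i they are 0.63 and 0.65.

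Promoters of the histone genes share short sequence elements, which were counted because several members differed in the same direction. RefSeq promoters (GRCm38.p6) were matched for 41 of the 47 genes, and the 150 bases before each start site were searched on both strands. Some windows overlap, as those of Hist1h2ae and Hist1h2bg do, so the same site can be counted for both genes. CCAAT was found in 34 of the 41 (82.9%), against 25.3% of the 27025 promoters searched in all, and TATAAA in 20 (48.8%), against 8.08%. The octamer ATTTGCAT, which is bound by Oct-1 in H2B promoters, was found in 9 (22%), against 1.02%, and the letters AAACACA of the H1 box in 8 (19.5%), against 3.5%. By type, CCAAT stood in 14 of 14 H2A, 8 of 8 H2B and 6 of 6 H1 promoters but in 4 of 6 H3 and 2 of 7 H4 promoters, the octamer in 5 H2A and 4 H2B promoters and none of the others, and AAACACA in 5 of the 6 H1 promoters. A pair of promoters is printed to show the arrangement, with matches in capitals. That of Hist1h2ab, whose difference by the brightest probe was the highest of the genes, is chr13:23750938-23751087 (plus strand), and that of Hist1h1e, an H1 gene with a difference of -0.11, is chr13:23622559-23622708 (minus strand).
Hist1h2ab: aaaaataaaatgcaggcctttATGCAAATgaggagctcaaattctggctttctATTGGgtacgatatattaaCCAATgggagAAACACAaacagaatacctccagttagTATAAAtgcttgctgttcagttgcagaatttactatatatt
Hist1h1e: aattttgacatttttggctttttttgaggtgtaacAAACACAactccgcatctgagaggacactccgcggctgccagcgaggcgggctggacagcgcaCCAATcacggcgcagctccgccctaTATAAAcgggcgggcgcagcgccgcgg
The first holds all 4 elements, with CCAAT on each strand, and the second all but the octamer. A match of letters is not a measurement of binding.

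Other genes of the histone pathway were taken from lists by role. Of 17 tested genes for cutting and decay of histone mRNA none passed the threshold by limma, and the median was 0.00. At an unadjusted p under 0.05, 1 of the 17 was lower (5.19% of all tested probes). Slbp, which binds the stem-loop, stood at -1.52, -1.96, -1.55 and -1.83 with EXO-Post BSA and at -0.76, -2.23 and -1.30 with EXO-Post Palm, a log2 fold change of 0.29 (adjusted p = 0.818) inside the spread between replicates. The genes at the ends of this list were Wdr33, a factor of polyadenylation, at 0.46 (adjusted p = 0.585), and Casp8ap2, which encodes the histone locus protein FLASH, at -0.52 (adjusted p = 0.463). Casp8ap2 was lower on all EXO-Post Palm arrays, at -1.26, -1.43 and -1.84 against -1.04 to -0.88. Of 14 tested genes for histone gene transcription and its cell cycle control none passed, 3 were higher (4.85% of all tested probes) and 1 lower (5.19%) at an unadjusted p under 0.05, and the median was -0.11. Ccna2, which encodes cyclin A2, stood highest, with means of -0.64 and 0.86 in EXO-Post BSA and EXO-Post Palm (adjusted p = 0.122), and the transcription factor gene Sp3 had the lowest, at -0.97 (adjusted p = 0.461).

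Asf1b and Cenpa passed the threshold. Asf1b encodes a chaperone that hands newly made H3 and H4 to the assembly factors. Its signal was -0.82, -0.93, -0.90 and -0.75 with EXO-Post BSA and 1.38, 1.09 and 2.32 with EXO-Post Palm, a rise of 2.45 (SE 0.30; adjusted p = 0.015 by limma), and 2.61 with slide as a block (adjusted p = 0.0327). Cenpa encodes the H3 variant of centromeres. Its signal was -1.84, -1.30, -2.50 and -1.78 with EXO-Post BSA and 0.88, 0.51 and 1.62 with EXO-Post Palm, a rise of 2.86 (SE 0.35; adjusted p = 0.0153). Each passed in 5 of the 7 fits that leave out an array. The exceptions were EXO-Post Palm replicate 1, without which the adjusted p was 0.0646 for Asf1b and 0.0697 for Cenpa, and EXO-Post Palm replicate 3, with 0.0585 and 0.0675.

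The rest of these lists stayed below the threshold. The 20 tested chaperone genes had a median of 0.17, with 5 at an unadjusted p under 0.05, all higher (4.85% of all tested probes). The lowest was Atrx, which with Daxx deposits H3.3, at -0.47 (adjusted p = 0.721). The 11 tested genes listed as replication-independent variants, most of which are made outside S phase too and have poly(A) tails, had a median of 0.29. At an unadjusted p under 0.05 there were 4, all higher (4.85% of all tested probes). After Cenpa the highest of them was H2afx at 0.89 (adjusted p = 0.16), and the lowest was the linker histone H1fx at -0.32 (adjusted p = 0.832). From the separate list of testis and oocyte histones, 3 were on the array and only H1foo was tested, at -0.17 (adjusted p = 0.947). The testis H2B gene Hist1h2ba was counted with the cluster genes and not among the tested genes of that list. It differed by 0.11 (adjusted p = 0.885 by limma). Of 18 tested S phase genes 17 were above 0, against 47.3% of all tested probes, and 10 were higher at an unadjusted p under 0.05, against 4.85%. Their median was 0.69, and none passed by limma. The highest was Mcm5, a subunit of the replicative helicase, at 1.44 (adjusted p = 0.0614), and the lowest Rrm1, a subunit of ribonucleotide reductase, at -0.23 (adjusted p = 0.894). Over the 16 of these genes measured on every array, the mean signal was -0.47, -0.38, -0.39 and -0.50 with EXO-Post BSA and 0.21, 0.21 and 0.40 with EXO-Post Palm. It moved with the histone genes between the groups, and its part in their difference was not tested. EXO-Post Palm replicate 3 was highest in both.

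**Figure D5:**
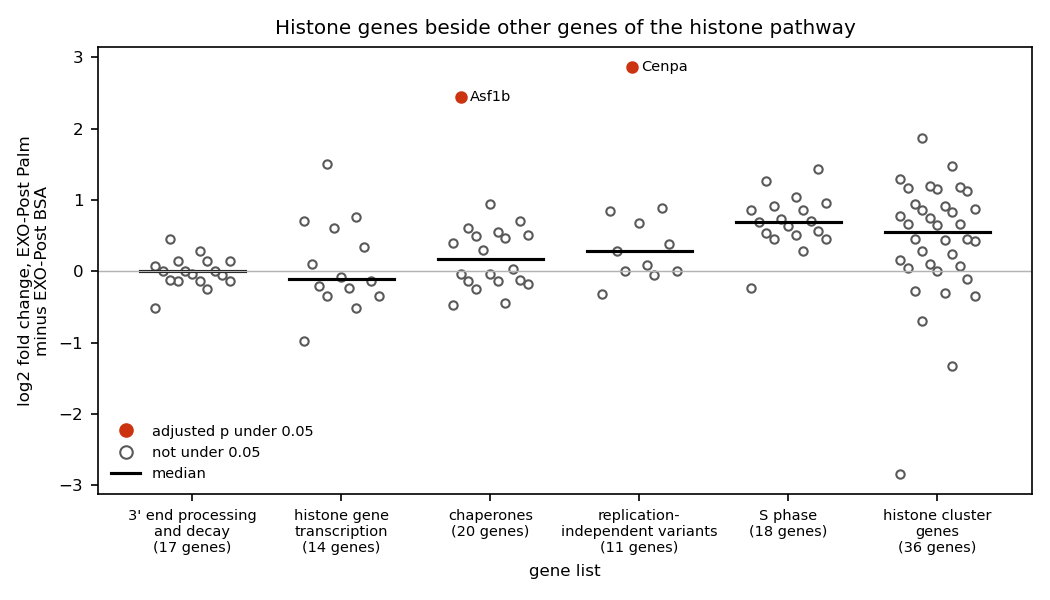
Log2 fold changes of the 36 tested histone genes beside 5 lists of other genes of the histone pathway, 1 point per gene given by its brightest probe, with a line at the median of each list. Asf1b at 2.45 and Cenpa at 2.86 are the points past an adjusted p of 0.05, and the median of the histone genes is 0.55 against 0.00 for cutting and decay and 0.69 for S phase.

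Of the 51 histone probes 12 were too dim to be tested, and 3 of them, for Hist1h3a, Hist2h4 and Hist3h2ba, did not stand well above background on any array. The 11 untested genes were Hist1h1d, Hist1h1t, Hist1h2aa, Hist1h2ae, Hist1h2bb, Hist1h2bp, Hist1h3a, Hist2h2ab, Hist2h2be, Hist3h2ba and Hist3h2bb. Hist2h4 was tested through its other probe.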

How the data were processed

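RNA of 7 cultures (EXO-Post BSA 4, EXO-Post Palm 3) was measured on 1-colour Agilent arrays. The authors deposited for each array the intensity written by Agilent Feature Extraction (version 9.1 per the labels, 10.7.3.1 or, for EXO-Post BSA replicate 3, 11.5.1.1 per the file headers), background-subtracted and detrended but not normalised between arrays. They also deposited a table of log2 values processed with limma, on settings not given in the sources used here. Its rows were joined by their order (rank correlation with the median intensity at least 0.9936).

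Log2 intensity minus the 75th percentile of 43020 non-control spots was analysed, without spots marked uneven or as outliers. That percentile was 549.4 to 1621.4, and 48.5 to 70.3% of 39429 probes were well above background, which with the number of arrays limits the precision. No spot was saturated. Probes well above background on at least 3 arrays of 1 group (21589) were fitted with limma 3.58.1 in R 4.3.3 on condition (prior degrees of freedom 3.67), with Benjamini-Hochberg adjustment over all of them and a threshold of 0.05, 2-sided. Single genes and probe pairs had an exact permutation test on the absolute difference of means over 35 ways to part 7 arrays. P-values measure the spread between these arrays, in which differences of culture, exosome preparation and slide are mixed. The fit was tested on simulated data.

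The names Hist1h to Hist4h are those of the array, and 46 of 47 genes were matched to RefSeq by accession. Probe positions are on mm9, promoters on GRCm38.p6 with RefSeq start sites, which can be the start codon. Named genes were those past the threshold, those in the study's own list (Hist1h2ab, Hist1h2ag, Hist1h2ak, Hist1h4d, Hist1h4k, Hist2h2aa2 and Hist2h4, chosen by the study on these arrays), the largest rise, fall and signal of each type among genes well above background on all arrays, the tested genes of Hist2, Hist3 and Hist4, genes whose probes differ in direction, and the extremes of the other lists. Hist1h1a, Hist1h1e, Hist1h2ac, Hist1h2an, Hist1h2ba, Hist1h2be, Hist1h2bg, Hist1h3c, Hist1h3g, Hist1h3i, Hist1h4c, Hist1h4h, Hist1h4i, H2afx, Slbp and the cell type markers were named after their values were seen. The members and lists were chosen with earlier results of these data known. Alternatives covered background correction, normalisation, the authors' values, the filter, slide and replicate blocks, weighting of arrays, a robust fit with a trend, the methods' test and each array left out. For normexp the median in place of the mean signal was used, which 1 file lacks. Fold changes in the study's own tables were not used.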

Additional observations from a re-analysis of the deposited data

Results flagged for a closer look

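Among 39 tested histone probes, the EXO-Post BSA arrays of Hist1h1a, a linker histone gene, held a value set apart from the rest (Dixon's criterion, which chance meets in about 5% of groups). Replicate 2 stood at -2.71, and its companions between -4.17 and -3.94. Of these 4 arrays, 2 had the probe well above background. Hist1h1a differed by 0.86 with all arrays (adjusted p = 0.466 by limma), and the value of replicate 2 lay inside the range of the EXO-Post Palm arrays, which were at -2.98, -2.90 and -2.63.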

How the results depend on the processing

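The median over histone genes stayed above 0 in every alternative run, between 0.33 with normexp and 0.85 without EXO-Post Palm replicate 2, and was 0.79 with slide as a fixed block and 0.43 to 0.85 with an array left out. The H2A median was 0.76 with normexp and 0.75 in the authors' values, the H1 median 0.08 with normexp and -0.11 for probes well above background on all arrays, and the H3 median 0.80 with the replicate block. With an array left out the ranges were 0.06 to 0.46 for H1, 0.85 to 1.35 for H2A, 0.35 to 0.80 for H3, 0.40 to 0.80 for Hist1 and 0.69 to 1.19 for Hist2. The median past the stem-loop was -0.13 with normexp and -0.17 in the authors' values, where that before it was 0.56 and 0.71. The cause of these moves was not tested.

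Histone probes past the threshold were 0 in the reported fit and 1, higher, with normexp, with the filter on all arrays, with slide as a random block, with array weights, with a trended and robust fit and with lone low spots left out, and 0 to 1 with an array left out. The probe was Hist1h4d with normexp and Hist1h2ak in the others. At an unadjusted p under 0.05 the number higher was 10 to 20 with an array left out, 10 without EXO-Post Palm replicate 3, and 13 by the methods' t-test, which called none after adjustment. The number lower was 1 without EXO-Post Palm replicate 1 and 1, in place of 0, with normexp, the array median, the authors' values, either slide block and the replicate block, and 0 to 1 with an array left out. Probes with groups not overlapping were 14 to 22 higher and 0 to 2 lower (16 to 22 and 0 to 2 with an array left out, with 2 lower when EXO-Post Palm replicate 1 was left out and 1 when EXO-Post BSA replicate 4 was). Of the other genes of the histone pathway, 2 passed in the reported fit, 4 with array weights or with the trended and robust fit, and 0 without a filter, with the replicate block and by the methods' t-test, and 0 to 3 with an array left out (0 without EXO-Post Palm replicate 1 or 3).

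Replicate numbers did not pair the arrays (correlations of deviations 0.122, -0.15 and -0.148), and the replicate block left 0 of 21589 probes past the threshold. Log2 fold changes changed sign for Hist1h1c (0.10 without EXO-Post Palm replicate 1, and -0.59 to 0.10 with an array left out), Hist1h2af (1.16 with slide as a fixed block, 1.25 without EXO-Post Palm replicate 2 or without its low spot, and -2.76 to 1.25 with an array left out), Hist3h2a (-0.14 with normexp, -0.17 in the authors' values) and Hist2h2aa1 (-0.04 with normexp, -0.01 with the array median, -0.03 in the authors' values, -0.06 with the replicate block or without EXO-Post BSA replicate 4, -0.02 without EXO-Post Palm replicate 3, and -0.06 to 0.15 with an array left out). Other genes with values on both sides of 0 were Hist1h1e (-0.24 to 0.03), Hist1h2an (-0.13 to 0.84), Hist1h2ba (-0.05 to 0.17), Hist1h2be (-0.18 to 0.13), Hist1h3i (-0.36 to 1.11), Hist1h4c (-0.36 to 0.40) and Hist1h4h (-1.64 to 0.60). Of 437 values under alternatives for 23 of the named results, 410 kept their direction and their side of the threshold. Dim probes near background and 4 arrays against 3 limit these results.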
